A study of Homo sapiens with 9 samples.

Results

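The kallikrein-related peptidases KLK5 to KLK14 are 10 neighbouring genes on chromosome 19, taken here as the genes whose names in the deposited count table are KLK5, KLK6, KLK7, KLK8, KLK9, KLK10, KLK11, KLK12, KLK13 and KLK14. They are 10 of the 58735 genes in that table. The group was selected on its levels in these same libraries, since KLK6 was already known to be among the genes lowest after GPX3 knockdown, so the differences between groups are given as descriptions of these genes and not as tests of them. RNA was sequenced from OVCAR3, an established ovarian carcinoma cell line, after 72 h in culture. A non-targeting scramble hairpin in otherwise wild-type cells served as the control, and a pair of short hairpin RNAs against GPX3, numbered 76 and 78 in the labels and called sh76 and sh78 here, gave the knockdown groups, with 3 replicates in each of the 3 groups. All 9 libraries therefore come from 1 cell line that carries a hairpin, both knockdown groups are set against the same scramble libraries, and nothing in the labels says whether replicates came from separate transductions or cultures.

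Kallikrein-related peptidases are secreted serine proteases with trypsin-like or chymotrypsin-like activity. They leave the cell as inactive proenzymes and are activated by cleavage, often by another member of the family, and serpins and Kazal-type inhibitors hold the active enzymes in check. In skin, KLK5, KLK7 and KLK14 shed corneocytes by cutting corneodesmosomes. Several of the genes are known to be highly expressed in epithelial ovarian carcinoma, where KLK6 and KLK10 have been studied as serum markers. Trypsin-like members can also cleave protease-activated receptors at the cell surface.

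Promoter sequence is shown for 3 neighbouring genes because they stand side by side and differed with sh76, where KLK6 and KLK7 were lower than with scramble and KLK5 was not. RefSeq (GRCh38.p14) gave a window of 250 bases before the start site for 9 of the 10 genes, all but KLK8. It gave 3 windows for KLK7 and KLK14, and 2 for KLK10, KLK11 and KLK13. In these genes only the window whose start site lay nearest the annotated 5′ end was used, and the others were not searched. The stretches below are the parts of those windows beyond the outermost annotated 5′ end of each gene, written 5′ to 3′ with motif matches in capitals.
KLK5, chr19:50953094-50953288, minus strand: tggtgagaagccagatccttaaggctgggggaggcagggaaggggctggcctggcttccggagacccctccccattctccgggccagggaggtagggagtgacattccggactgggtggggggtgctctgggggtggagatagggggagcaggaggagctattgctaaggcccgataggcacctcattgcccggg
KLK6, chr19:50969674-50969841, minus strand: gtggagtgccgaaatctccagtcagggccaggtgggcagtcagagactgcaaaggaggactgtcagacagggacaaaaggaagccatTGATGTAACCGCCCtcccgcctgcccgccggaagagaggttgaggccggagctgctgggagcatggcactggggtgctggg
KLK7, chr19:50984100-50984314, minus strand: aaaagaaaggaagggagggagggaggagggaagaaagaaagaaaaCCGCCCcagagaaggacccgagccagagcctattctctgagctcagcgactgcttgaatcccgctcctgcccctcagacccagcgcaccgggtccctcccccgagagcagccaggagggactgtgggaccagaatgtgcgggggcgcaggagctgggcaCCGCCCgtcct
The capitals in KLK6 join 2 adjacent motif matches, TGATGNAA (the core of the composite site of ATF4 and C/EBP) at −163 and GGGCGG (the GC box) on the other strand at −155, counted from the start site. The full KLK6 window also held GC boxes at −83 and −11 and an AP-2 match at −22, which the printed stretch does not hold in full. In KLK7 the capitals mark GC boxes at −205 and −46, both on the other strand. The KLK5 window held no match to any of the motifs searched.

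Motifs were searched on both strands of the full windows by their letters. The TGATGNAA core was found in KLK6 alone of the 9 windows, and in 3.14% of all 35116 RefSeq windows. GC boxes were found in 4 of the 9 (KLK6, KLK7, KLK9 and KLK13), against 42.6% of all windows. A CCAAT box (CCAAT) was found in KLK13 and an AP-2 match (GCCNNNGGC) in KLK6, against 32.0% and 19.8% of all windows. None of the 9 held a TATA box (TATAAA, 10.7% of all windows), an AP-1 site (TGANTCA, 6.57%) or a grainyhead site (AACCNGTT, 1.49%). The windows of KLK5, KLK6 and KLK7 were 64.8%, 66.8% and 64.0% G and C, where the median of all windows was 58.0%. These matches describe letters in a fixed window and say nothing of whether a factor binds there.

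The library totals ran from 14652965 to 21327562 counts, and 17023 of the 58735 genes passed the count filter. GPX3, the targeted gene, was examined first: it had 133 ± 34.8 CPM (SD, n = 3) with scramble, 55.9 ± 0.852 with sh76 and 30.6 ± 4.01 with sh78, where CPM are counts scaled to a common library size. All 12 ovarian carcinoma epithelium markers on the list used, such as PAX8, EPCAM and MUC16, passed the filter. Their summed FPKM (fragments per unit of gene length, scaled to library size) was 2380 to 2580 with scramble, 2100 to 2310 with sh76 and 2000 to 2110 with sh78. KRT8 and KRT18 account for that order, at 1310 to 1570, 1090 to 1300 and 958 to 1110 FPKM together. The other 10 markers summed to 998 to 1070, 970 to 1010 and 992 to 1040 FPKM, with overlapping groups. At an edgeR adjusted p under 0.05, PAX8 and FOLR1 were called lower with sh76, and EPCAM, FOLR1, KRT8 and KRT18 with sh78. Summed fibroblast, leukocyte and endothelial markers were at most 5.65 FPKM in every library. Squamous markers summed to between 20.9 and 31.5 FPKM with overlapping groups, and KRT1 and IVL were at 0 in all 9 libraries. The part of these markers in the kallikrein values was not tested, and in bulk RNA fewer cells of a type and less RNA per cell cannot be told apart.

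All 10 genes lie on the minus strand of chromosome 19 (GRCh38) in the order of their numbers. KLK5 (ENSG00000167754) spans 50943303 to 50953093, and KLK6 (ENSG00000167755) spans 50958631 to 50969673. KLK7 (ENSG00000169035) spans 50976482 to 50984099, and KLK8 (ENSG00000129455) spans 50996007 to 51002711. KLK9 (ENSG00000213022) lies at 51003111 to 51009634, KLK10 (ENSG00000129451) at 51012739 to 51020175 and KLK11 (ENSG00000167757) at 51022216 to 51028039. KLK12 (ENSG00000186474) lies at 51029092 to 51035230, KLK13 (ENSG00000167759) at 51056206 to 51065114 and KLK14 (ENSG00000129437) at 51077495 to 51084245.

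Some of these genes share exonic bases with other annotated genes, and the libraries carry no strand. The readthrough gene AC011473.4, on the same strand, covers 93.7% of the exonic bases of KLK9 and 40.1% of those of KLK8, and had 22 counts over the 9 libraries. The antisense gene AC011483.2 covers 20.3% of KLK6 and 12.2% of KLK5, and had 13 counts. Smaller overlaps touch KLK10 (6.23%) and KLK12 (9.04%). How reads that fall in shared bases were counted is not given in the sources used here, so the counts of KLK8 and KLK9 are the least certain, and those of KLK5 and KLK6 share antisense bases.

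In scramble cells KLK5 was by far the most abundant of the 10 per length. Its deposited FPKM was 206, 192 and 203 in scramble replicates 1 to 3 (200 ± 7.42, SD, n = 3), which ranked 121 among 19951 protein-coding genes by mean FPKM. KLK6 followed at 18.5 ± 1.38 FPKM, KLK10 at 15.8 ± 0.157, KLK8 at 10.7 ± 0.897 and KLK7 at 9.61 ± 1.36. The replicate ranges of neighbours in this order did not overlap, except those of KLK8 and KLK7. A step down separated KLK7 from KLK14 (1.34 ± 0.337 FPKM), KLK11 (0.585 ± 0.0869) and KLK13 (0.549 ± 0.156), the last 2 with overlapping ranges. KLK12 (0.118 ± 0.151 FPKM) and KLK9 (0 in all scramble libraries) were barely detected.

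**Figure D1:**
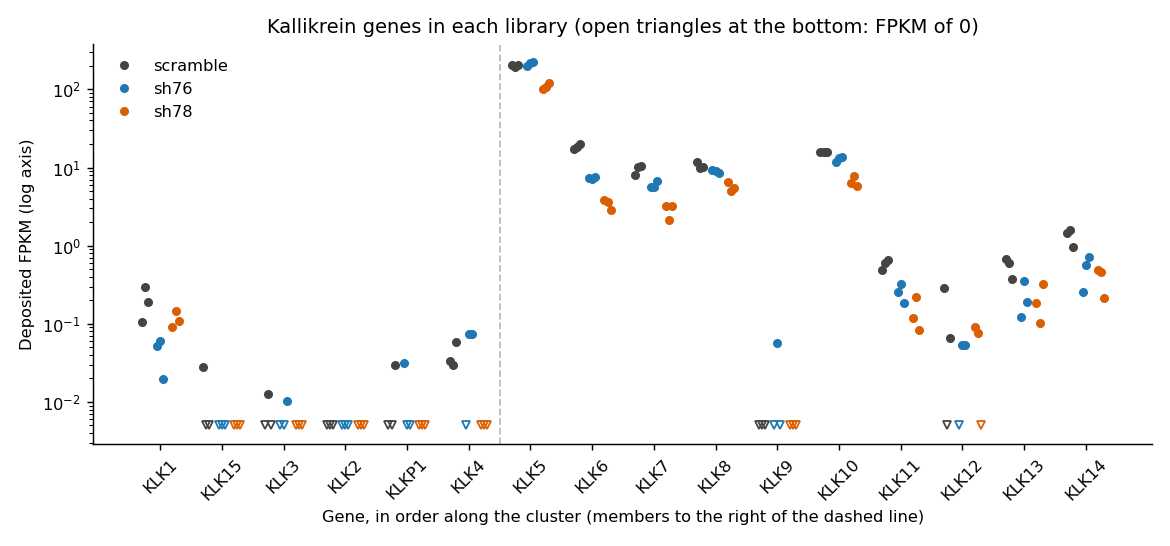
Deposited FPKM (log axis) of the 16 kallikrein genes in each of the 9 libraries, in genomic order from KLK1 to KLK14, with 1 point per library, coloured by group, and open triangles for an FPKM of 0. KLK5 stands above all others at 100 to 223 FPKM, and the 6 genes to the left of the dashed line stay below 0.3 FPKM.

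Summed over the 10 genes, FPKM was 257 ± 7.23 with scramble, 249 ± 13.2 with sh76 and 128 ± 8.08 with sh78 (SD, n = 3). The scramble range (249 to 262) overlapped that of sh76 (235 to 261), and all 3 sh78 libraries (121 to 137) lay below both. KLK5 dominates that sum, with 77.8 ± 0.819% of it in scramble cells. Without KLK5 the sum was 57.2 ± 1.4, 36.3 ± 1.5 and 19.5 ± 1.4 FPKM, and the 3 groups did not overlap. The share of KLK5 was 85.4 ± 0.2% with sh76 and 84.7 ± 2.05% with sh78, while that of KLK6 was 7.18 ± 0.539% with scramble, 2.96 ± 0.131% with sh76 and 2.73 ± 0.572% with sh78. By FPKM, the kallikrein RNA of the knockdown cells thus held relatively more KLK5 and less KLK6 than that of scramble cells. Knockdown and scramble libraries did not overlap in either share.

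KLK6 encodes a trypsin-like protease first described in brain and in tumour cells, and its level differed most between groups among the 5 abundant genes. It had 34.3, 36.3 and 39.4 CPM in scramble replicates 1 to 3. With sh76 it had 14.6, 14.4 and 15 CPM, and with sh78 it had 7.76, 7.22 and 5.72 CPM. The 3 groups formed separate steps, and the sh76 libraries were the closest to one another, with an SD of 0.313 CPM. The log2 fold change was −1.32 (SE 0.11) with sh76, −2.41 (SE 0.12) with sh78 and −1.08 (SE 0.13) for sh78 against sh76. KLK6 was thus at 40.0% of its scramble level with sh76 and at 18.9% with sh78.

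KLK5 encodes a trypsin-like protease that starts the activation cascade in skin, and it was the exception with sh76. It had 343, 320 and 335 CPM with scramble and 334, 360 and 372 CPM with sh76, ranges that overlap (log2 fold change 0.09, SE 0.07). With sh78 it had 167, 179 and 198 CPM, below every library of the other groups. The log2 fold change was −0.88 (SE 0.07) against scramble and −0.97 (SE 0.07) against sh76. The gene therefore differed between the hairpins by about as much as it differed between sh78 and scramble.

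KLK7 encodes the chymotrypsin-like partner of KLK5 in skin, which KLK5 activates there. It had 19.8, 24.9 and 25.8 CPM with scramble, 13.8, 14.1 and 16.3 CPM with sh76 and 7.81, 5.30 and 7.99 CPM with sh78. The groups did not overlap at either step. Its log2 fold change was −0.68 (SE 0.15) with sh76, −1.74 (SE 0.16) with sh78 and −1.06 (SE 0.16) between the hairpins. The sh76 call of KLK7 was lost without scramble replicate 2 (−0.64), without scramble replicate 3 (−0.61), without sh76 replicate 1 (−0.63) and without sh76 replicate 2 (−0.64).

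KLK8 encodes neuropsin, a trypsin-like protease studied in hippocampus and in skin. It had 22.1, 18.9 and 19.3 CPM with scramble, 17.6, 17.1 and 16.2 CPM with sh76 and 12.3, 9.42 and 10.3 CPM with sh78. Each group lay wholly below the one before it, by a small margin between scramble and sh76. The log2 fold changes were −0.24 (SE 0.12) with sh76, −0.90 (SE 0.12) with sh78 and −0.66 (SE 0.12) between the hairpins.

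KLK10, first described as a gene expressed in normal but not in tumour breast epithelial cells, had 61.6, 61.7 and 60.1 CPM with scramble. It had 45.9, 52.1 and 52.3 CPM with sh76 and 24.6, 30.1 and 22.6 CPM with sh78. These groups did not overlap either, and the step to sh78 was the larger one. The log2 fold changes were −0.29 (SE 0.10), −1.25 (SE 0.10) and −0.96 (SE 0.10) for sh76, sh78 and sh78 against sh76. KLK10 was at 82.0% of its scramble level with sh76 and at 42.1% with sh78.

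**Figure D2:**
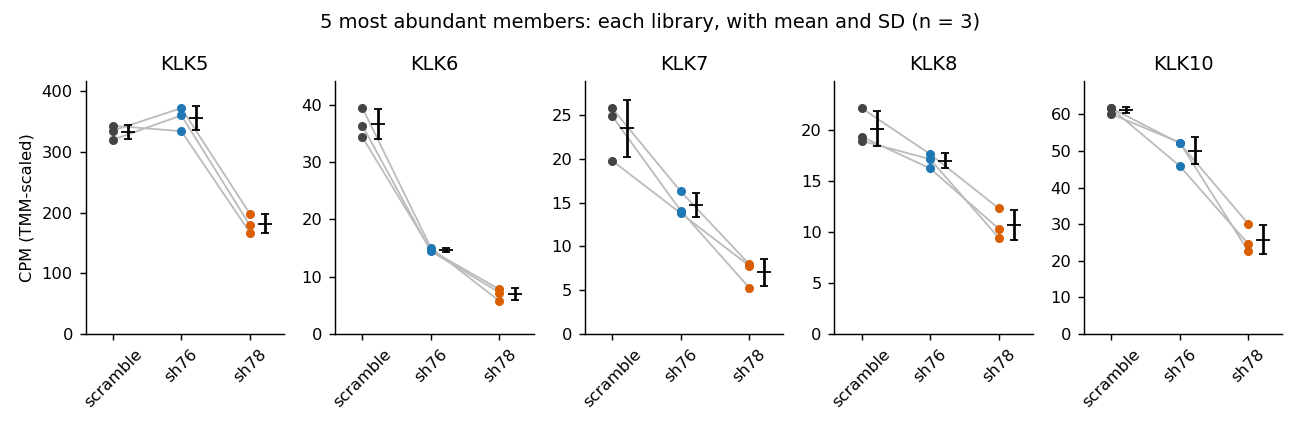
CPM of KLK5, KLK6, KLK7, KLK8 and KLK10 in each library, with lines joining libraries of the same replicate number and the mean and SD (n = 3) beside each group. KLK6, KLK7, KLK8 and KLK10 step down from scramble to sh76 to sh78 without overlap, while KLK5 overlaps between scramble and sh76.

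KLK11, KLK13 and KLK14 were measured on few counts and passed the count filter mainly through their scramble libraries, so a difference was built into their being there. KLK11, a trypsin-like protease also called hippostasin, had 24, 32 and 36 counts with scramble, 13, 21 and 12 with sh76 and 7, 10 and 4 with sh78. KLK13 had 21, 21 and 13 counts with scramble, 4, 15 and 8 with sh76 and 7, 3 and 10 with sh78. KLK14, which belongs to the skin cascade of KLK5, had 27, 33 and 20 counts with scramble, 5, 14 and 18 with sh76 and 11, 8 and 4 with sh78. In CPM the scramble libraries lay above every hairpin library for all 3 genes, and the hairpin groups overlapped each other.

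For KLK11 the log2 fold change was −1.20 (SE 0.35) with sh76 and −2.06 (SE 0.39) with sh78. KLK13 had −1.24 (SE 0.47) and −1.41 (SE 0.49), and KLK14 had −1.34 (SE 0.40) and −1.75 (SE 0.43). Their standard errors were several times those of the abundant genes, so their order among the 8 is not resolved. KLK14 lost its sh78 call without scramble replicate 1 (−1.69) or 2 (−1.60), without sh76 replicate 2 (−1.75), or without sh78 replicate 1 (−1.98), 2 (−1.86) or 3 (−1.47).

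KLK12 and KLK9 did not pass the filter. KLK12 had 8, 0 and 2 counts with scramble, 0, 2 and 2 with sh76 and 3, 2 and 0 with sh78. KLK9 had 1 count in all, in sh76 replicate 2. A count of 0 allows up to 3 counts in a library, by counting error alone, so no difference was detectable for either gene at this depth.

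Calls are counted here at an edgeR adjusted p under 0.05 over the 17023 genes tested, and nothing is read from the share of kallikrein genes called, since they were selected on these comparisons. With sh76, 2 of the 8 genes tested were called lower (KLK6 and KLK7) and none (0) higher, where 3.58% of all genes were called, 2.16% lower and 1.43% higher. In 7 of the 8 all 3 sh76 libraries lay below all 3 scramble libraries, as in 11.7% of all genes, where another 10.8% lay above. These 7 include KLK11, KLK13 and KLK14, which passed the filter mainly through scramble. Nothing is read from their place below scramble or from their calls. The replicate numbers pair the libraries, and with the replicate number as a block 6 were called lower, adding KLK10, KLK11, KLK13 and KLK14 (edgeR adjusted p 0.00104, 0.00896, 0.0432 and 0.0111), where the block called 20.4% of all genes, 10.7% lower.

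With sh78, 7 of the 8 were called lower (all but KLK13) and 0 higher, where 4.41% of all genes were called, 2.56% lower and 1.85% higher. All 8 had their 3 sh78 libraries below the 3 scramble libraries, as 11.2% of all genes did, with 10.2% above. For KLK11, KLK13 and KLK14, which passed the filter mainly through scramble, this place and any call were favoured by the filter. The block added KLK13 (edgeR adjusted p 0.0333) and called 19.9% of all genes, 10.1% lower. KLK6 and KLK7 were the 2 called lower with both hairpins, which 0.881% of all genes were.

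Between the hairpins, 5 of the 8 were called lower with sh78 than with sh76 (KLK5, KLK6, KLK7, KLK8 and KLK10), where 3.70% of all genes were called, 1.72% lower and 1.97% higher. In the same 5 the sh78 libraries lay below all sh76 libraries, as in 10.9% of all genes, with 10.9% above. The block called these 5 as well, and 18.3% of all genes, 8.62% lower. KLK6, KLK7, KLK8 and KLK10 had every scramble library above every sh76 library and every sh76 library above every sh78 library, an order that 0.623% of all genes showed. The median log2 fold change of the 8 was −0.94 with sh76, −1.57 with sh78 and −0.91 between the hairpins, against 0.01, 0.01 and 0 over all genes tested, and includes the 3 genes that passed the filter mainly through scramble.

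The rest of the cluster and its flanks were read for how far along the chromosome low values reached. None of the 6 other kallikrein genes at this locus (KLK1, KLK15, KLK3, KLK2, KLKP1 and KLK4) passed the filter. KLK1, the tissue kallikrein, had 4, 12 and 8 counts with scramble, 2, 3 and 1 with sh76 and 4, 5 and 4 with sh78. Its sh76 libraries lay below the scramble libraries on at most 3 counts each, and its sh78 libraries overlapped them. KLK2 had 0 counts in every library. KLK3, which encodes prostate-specific antigen, KLK4, KLK15 and KLKP1 had at most 3 counts in any library.

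Of 45 further genes annotated within 250 kb of the cluster, 4 passed the filter and none (0) was called by edgeR or DESeq2 in any of the 3 comparisons. At an unadjusted p under 0.05 edgeR gave 1 of the 4 as lower with each hairpin and 0 between the hairpins. CTU1, which modifies the wobble base of transfer RNA and is the nearest of the 4 on the KLK14 side, had a mean of 18.8 ± 0.502 CPM with scramble, 19.6 ± 1.33 with sh76 and 18.6 ± 0.121 with sh78 (SD, n = 3). It differed by 0.06 on the log2 scale with sh76 (edgeR adjusted p 0.827) and by −0.02 with sh78 (edgeR adjusted p 0.955), each with an SE of 0.10. C19orf48, on the KLK1 side, had 80.8 ± 6.42, 68.2 ± 6.43 and 68.4 ± 3.37 CPM, and every hairpin library lay below the scramble libraries. Its log2 fold change was −0.24 with each hairpin (edgeR adjusted p 0.142 and 0.142), a difference that edgeR called once the block was added (adjusted p 0.00143 and 0.00191). VSIG10L (−0.19 and −0.34) and CLEC11A (0.58 and 0.04) were not called either. A p that misses the threshold does not show that these genes were unchanged.

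**Figure D3:**
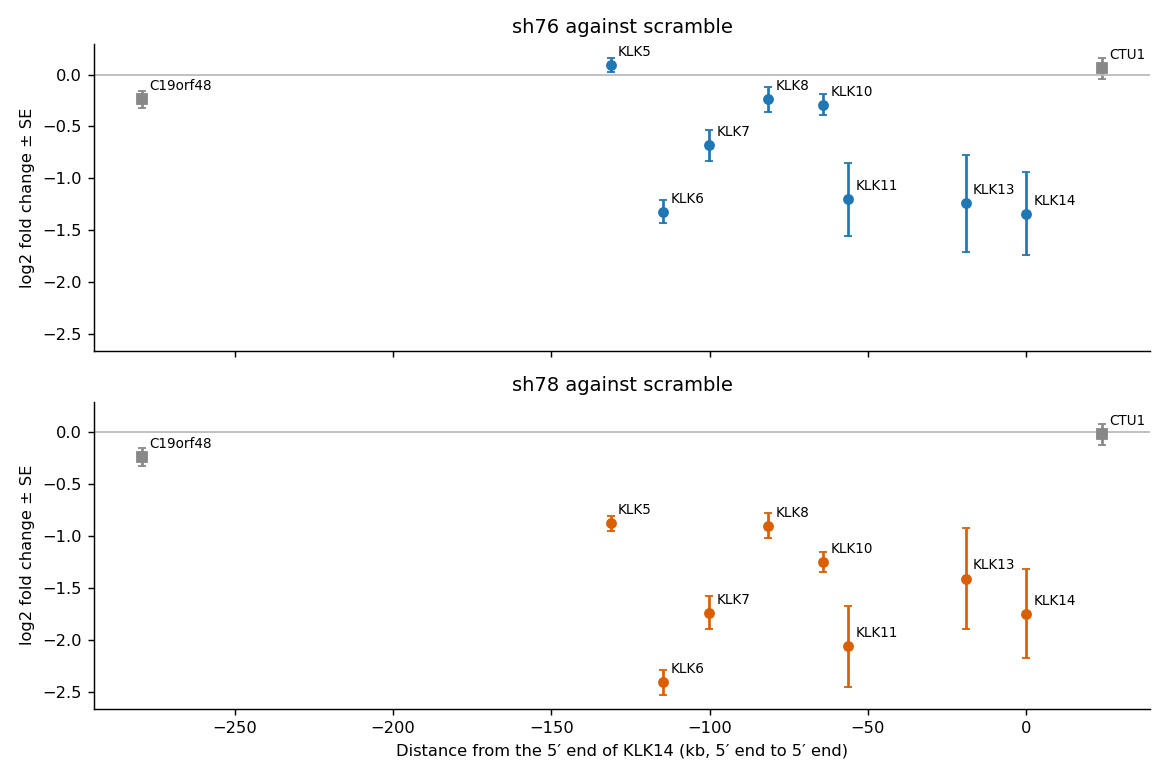
Log2 fold change against scramble, with its standard error, of the 8 kallikrein genes tested (circles) and of C19orf48 and CTU1 (grey squares), by distance in kb from the 5′ end of KLK14; the upper panel is sh76 and the lower sh78. With sh76 the values run from 0.09 at KLK5 to −1.34 at KLK14, with sh78 from −0.88 to −2.41, and C19orf48 and CTU1 stay between −0.24 and 0.06. VSIG10L and CLEC11A, the other 2 flanking genes tested, are not drawn.

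Fold changes did not follow position within the cluster in a simple order. With sh76, KLK5 at one end of the 8 was at 107% of its scramble level, its next neighbour KLK6 was at 40.0% of it, and KLK7, KLK8 and KLK10 were at 62.6%, 84.5% and 82.0%. With sh78 the same 5 were at 54.4%, 18.9%, 30.0%, 53.5% and 42.1%. KLK6 had the lowest and KLK5 and KLK8 the highest percentage of these 5 with sh78.

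Inhibitors of kallikrein peptidases were described from a list of 14 genes, 6 of which passed the filter. With sh76 1 was called lower, with sh78 2 were called lower and between the hairpins 1 was lower with sh78, with none higher and medians of −0.07, −0.48 and −0.37. With the block these counts were 2, 4 and 2, all lower, where the block called 20.4%, 19.9% and 18.3% of all genes. SLPI, secretory leukocyte peptidase inhibitor, which is known to block several serine proteases, was the most abundant at 403, 364 and 264 FPKM (means with scramble, sh76 and sh78). It had 251, 226 and 247 CPM with scramble, 233, 214 and 211 CPM with sh76 and 159, 155 and 160 CPM with sh78. All sh78 libraries lay below the others, and the log2 fold change was −0.61 with sh78 (SE 0.06, edgeR adjusted p 0.000125) and −0.47 against sh76 (edgeR adjusted p 0.000893). With sh76 it was −0.14 (edgeR adjusted p 0.263), which the replicate block called (edgeR adjusted p 0.0176). SERPINA5, the protein C inhibitor, was the gene of the list called lower with both hairpins. It had 13.1, 7.75 and 8.73 CPM with scramble, 3.76, 2.71 and 1.53 CPM with sh76 and 3.12, 1.17 and 2.27 CPM with sh78, so all 6 hairpin libraries lay below the scramble libraries. Its log2 fold change was −1.90 with sh76 (edgeR adjusted p 0.0118), a call lost without sh76 replicate 2 (−1.92), and −2.14 with sh78 (edgeR adjusted p 0.00585).

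Receptors that proteases activate or that respond to kinins numbered 6, of which 2 passed the filter. F2R, the thrombin receptor PAR1, had 80.4, 74.2 and 75.6 CPM with scramble, 51.9, 58.1 and 56.5 CPM with sh76 and 65.1, 68.8 and 82.3 CPM with sh78. It fell with sh76 (log2 fold change −0.47, SE 0.09, edgeR adjusted p 0.00991), and the sh78 libraries overlapped the scramble range. F2R was higher with sh78 than with sh76 (0.38, edgeR adjusted p 0.0315), a call lost without sh76 replicate 1 (0.33), 2 (0.41) or 3 (0.39) and without sh78 replicate 2 (0.41) or 3 (0.27). F2RL1, the receptor PAR2 that trypsin-like kallikreins are known to cleave, was the most abundant at 41.3, 44.5 and 40.9 FPKM with scramble, sh76 and sh78, and was called in none of the 3 comparisons by edgeR without the block. With the block its small difference between the hairpins was called (−0.13, sh78 lower, edgeR adjusted p 0.0491).

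Trypsin-fold proteases encoded outside the cluster were 15, of which 12 passed the filter. With sh76 2 were called lower and 1 higher, and between the hairpins 2 were lower and 1 higher with sh78. With sh78 against scramble edgeR called 0, DESeq2 called 1 lower, and at an unadjusted p under 0.05 edgeR gave 5 lower and 1 higher. The block called 8 of the 12 in each comparison: 6 lower and 2 higher with sh76, 7 lower and 1 higher with sh78, and 5 lower and 3 higher with sh78 than with sh76. Of all genes it called 20.4%, 19.9% and 18.3% in these comparisons. The medians of the 12 were −0.22, −0.25 and −0.14. HPN, the membrane protease hepsin, fell with sh76 (log2 fold change −0.80, SE 0.13, edgeR adjusted p 0.0038), from 11.2 ± 0.742 to 6.42 ± 0.0472 CPM. Against sh76, the block called it higher with sh78 (0.49, edgeR adjusted p 0.00509). TMPRSS2, another membrane protease, fell with sh76 (−0.54, SE 0.11, edgeR adjusted p 0.0137) and was higher with sh78 than with sh76 (0.80, edgeR adjusted p 0.00107). With sh78 it had 28.6 ± 1.51 CPM against 24.0 ± 2.02 with scramble, a log2 difference of 0.25 that edgeR called with the block (adjusted p 0.0327) and not without it.

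PLAU, the urokinase plasminogen activator, went the other way from KLK6 and KLK7 with sh76, while KLK5 was not lower there either. It had 68.0, 66.8 and 78.6 CPM with scramble, 86.8, 110 and 103 CPM with sh76 and 47.7, 63.0 and 54.8 CPM with sh78. It rose with sh76 (0.50, SE 0.11, edgeR adjusted p 0.0252), a call lost without scramble replicate 1 (0.46) or 2 (0.45) and without sh76 replicate 2 (0.42) or 3 (0.47), and was lower with sh78 than with sh76 (−0.86, edgeR adjusted p 0.000921). TMPRSS4 was lower with sh78 than with sh76 as well (−0.76, edgeR adjusted p 0.0248), which was lost without sh76 replicate 2 (−0.74) or 3 (−0.65) and without sh78 replicate 2 (−0.80). With the block, edgeR also called PLAU against scramble with sh78 (−0.37, adjusted p 0.000204). It called TMPRSS4 there too (−0.34, adjusted p 2.3e-05), and in the opposite direction with sh76 (0.42, adjusted p 1.32e-07). ST14, which encodes matriptase and was the most abundant of the list at 67.3 FPKM with scramble, was called with the block and not in the fit without it, lower with sh78 than with scramble (−0.17, edgeR adjusted p 0.00194) and than with sh76 (−0.15, edgeR adjusted p 0.00784).

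Proteins reported as kallikrein substrates were 16, of which 12 passed the filter, and edgeR called 0 with either hairpin against scramble. At an unadjusted p under 0.05 it gave 1 higher with sh76, and 1 higher and 2 lower with sh78, while DESeq2 called 0 with sh76 and 1 in each direction with sh78. With the block, edgeR called 2 higher and 1 lower with sh76, 3 in each direction with sh78, and 3 higher and 2 lower with sh78 than with sh76. Of all genes the block called 20.4%, 19.9% and 18.3% in these comparisons. FLG, filaggrin of the outer skin, is added after its values were seen: it had 200, 253 and 197 CPM with scramble and 119, 134 and 89.3 CPM with sh78, ranges that do not overlap. The log2 difference of −0.93 (SE 0.21) had an edgeR adjusted p of 0.054 and was called with the block (edgeR adjusted p 0.0264). L1CAM, FN1 and NRG1, added in the same way, were called higher with the block and not in the fit without it. With the block L1CAM was higher with sh76 (0.48, edgeR adjusted p 1.03e-06) and with sh78 (0.57, edgeR adjusted p 5.11e-08). FN1 was higher there with sh78 (0.88, edgeR adjusted p 0.042) and NRG1 with sh76 (0.72, edgeR adjusted p 0.021). Between the hairpins 1 was higher with sh78, IGFBP3, a carrier of insulin-like growth factors (0.35, SE 0.07, edgeR adjusted p 0.0162). That call was lost without sh76 replicate 2 (0.30) or 3 (0.33) and without sh78 replicate 2 (0.31), and the block also called IGFBP3 higher with sh78 than with scramble (0.27, edgeR adjusted p 0.000415). APP, the amyloid precursor protein, was the most abundant at 180, 169 and 183 FPKM and was called with the block and not in the fit without it, higher with sh78 than with sh76 (0.11, edgeR adjusted p 0.0405).

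Nuclear receptors for steroids, retinoids and vitamin D, known regulators of several kallikrein genes in other tissues, were described from 7 genes, of which 6 passed the filter. With each hairpin 1 was called higher and none lower, with medians of 0.18 and 0.14. Between the hairpins edgeR and DESeq2 called 0, and edgeR gave 0 at an unadjusted p under 0.05. VDR, the vitamin D receptor, had 36.6, 35.4 and 38.6 CPM with scramble, 44.6, 52.4 and 54.5 CPM with sh76 and 53.5, 60.4 and 51.8 CPM with sh78. It rose with sh76 (0.46, SE 0.09, edgeR adjusted p 0.0139) and with sh78 (0.58, SE 0.09, edgeR adjusted p 0.00244). The sh76 call was lost without scramble replicate 2 (0.42) and without sh76 replicate 2 (0.43) or 3 (0.40). RARG, the most abundant of the list at 23.0 FPKM with scramble, was called with the block and not in the fit without it, higher with sh76 (0.18, edgeR adjusted p 0.00436), which made 2 block calls with sh76 and 1 with sh78. Of all genes the block called 20.4% with sh76 and 19.9% with sh78.

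Over these 5 lists, 38 of 58 genes outside the locus passed the filter, and edgeR called 6 with sh76, 3 with sh78 and 6 between the hairpins, where the shares of all genes called were 3.58%, 4.41% and 3.70%. With the replicate block the counts were 16, 19 and 17, where the block called 20.4%, 19.9% and 18.3% of all genes.

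**Figure D4:**
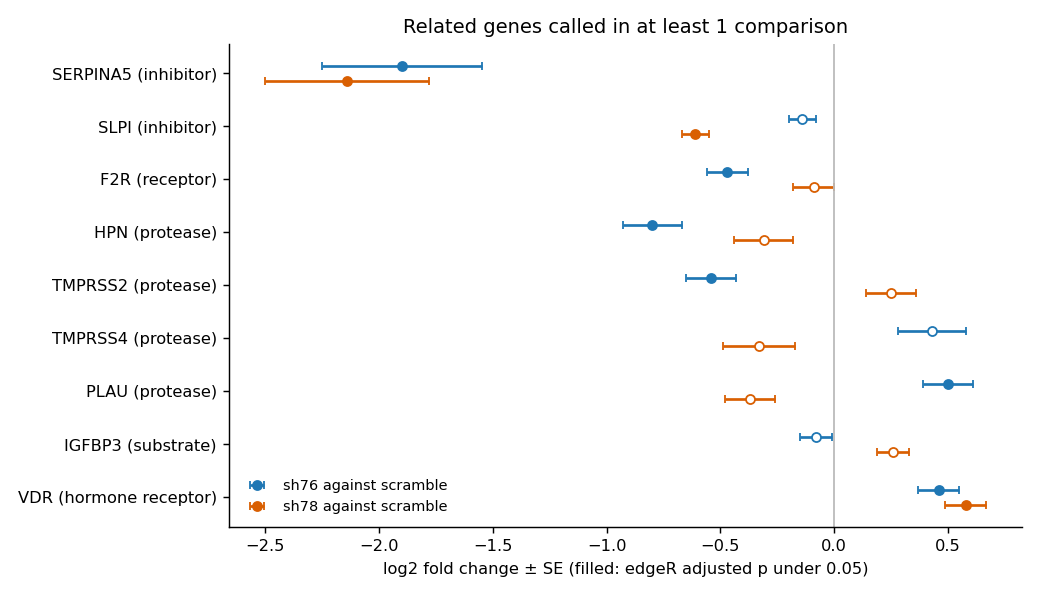
Log2 fold change against scramble, with its standard error, of the 9 listed genes called in at least 1 of the 3 comparisons; blue is sh76, orange is sh78, and filled points passed an edgeR adjusted p under 0.05. SERPINA5 lies left of 0 and VDR right of 0 for both hairpins, while TMPRSS2, TMPRSS4, PLAU and IGFBP3 lie on opposite sides of 0 for the 2 hairpins.

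Genes with the pattern most like each kallikrein across the 9 libraries were sought among 11259 protein-coding genes, by Pearson's r of log2 CPM. For KLK6 these were CYB5R2 (r = 0.983), JPT2 (0.977), MYOF (0.976), EPCAM (0.975) and DVL1 (0.974). EPCAM, an epithelial adhesion protein, had 317 ± 8.6 CPM with scramble, 282 ± 3.05 with sh76 and 252 ± 11.4 with sh78 (SD, n = 3), a smaller fold difference between groups than that of KLK6. For KLK5 the closest was KRT6A (0.986), for KLK7 COMMD7 (0.984), for KLK8 BAK1 (0.977) and for KLK10 HACD2 (0.987). For KLK11 and KLK13 they were MRPL11 (0.965) and TCTN1 (0.935). The 9 points share 3 groups and 3 replicate numbers, so these values mainly rank genes by how their group means are placed. Within groups, the r of KLK6 with JPT2 was 0.929 and with MYOF −0.323.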

How the data were processed

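Poly-A RNA was sequenced from 9 OVCAR3 samples with non-directional libraries, per the labels' protocols. The submitters' processing notes name HISAT2 2.0.5, featureCounts 1.5.0-p3 and hg38. Raw counts and FPKM for every gene are the deposited values of the authors, used as they stand. The count test was edgeR 4.0.16, run in R 4.3.3: filterByExpr (minimum count 10, total 15), TMM scaling and quasi-likelihood F tests with 1 coefficient per group over all 9 libraries. Adjusted p-values are Benjamini-Hochberg over the 17023 genes tested, and genes were called under 0.05. CPM use TMM-scaled library sizes. Members and gene lists were chosen with earlier results of these data known. Of the listed genes, those called in at least 1 comparison (at most 4 per list) and the most abundant are named. FLG, L1CAM, FN1 and NRG1 are named besides, chosen after their values were seen. A listed gene and an alike gene are not reported here. Genes named as alike had a group with mean FPKM of 1 or more, and log2 CPM used a prior count of 2.

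Replicates of a group differed beyond counting noise, with a chi-square per degree of freedom of at least 4.9. Labels number replicates 1 to 3 in every group. Deviations from group means correlated with an r of 0.142 to 0.391 in the 9 same-numbered pairs, against −0.31 to 0.0639 in the 18 differently numbered pairs, so the numbers were read as pairing the libraries. Nothing says that replicates are separate cultures, and p-values then measure only the spread between these samples. Alternatives were the block, DESeq2 1.42.0, RLE size factors, no filter, only the groups compared, limma 3.58.1 on log2(FPKM + 1) or log2(FPKM + 0.1), and each library left out.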

Additional observations from a re-analysis of the deposited data

Results flagged for a closer look

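These are the genes among the kallikreins, their listed relatives and the epithelial markers that differed between the hairpins in the direct comparison of sh78 with sh76, given as log2 fold changes. They were called at an edgeR adjusted p under 0.05, as 3.70% of all genes were. Lower with sh78 were KLK6 (−1.08), KLK7 (−1.06), KLK5 (−0.97), KLK10 (−0.96) and KLK8 (−0.66), which belong to the group selected on these data, and PLAU (−0.86), TMPRSS4 (−0.76) and SLPI (−0.47). Higher with sh78 were TMPRSS2 (0.80), F2R (0.38), PAX8 (0.37) and IGFBP3 (0.35). The calls of F2R, IGFBP3 and TMPRSS4 were lost in some of the fits that left out 1 library. With 3 libraries a group, no single library was tested for standing apart.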

How the results depend on the processing

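No kallikrein gene changed direction past the threshold in any alternative. Over 24 fold changes of the 8 genes tested and 381 refits, 363 kept their side of the threshold, 11 lost a call and 7 gained one. The count called with sh76 was 2. It was 6 with the replicate block, 3 on log2(FPKM + 1) and 1 on log2(FPKM + 0.1), and leaving out 1 library gave 1 to 2. Without the filter KLK14 gained a call with sh76 (edgeR adjusted p 0.0459). With sh78 it was 7, and leaving out 1 library gave 6 to 7. Between the hairpins it was 5 in every alternative run. For the 9 related genes called and GPX3 (10 genes), 433 of 480 refits kept their side, 28 lost a call and 19 gained one. The call of F2R between the hairpins and that of PLAU with sh76 were also lost on log2(FPKM + 1) and on log2(FPKM + 0.1). The listed genes called with sh76 (6) were 10 without the filter and 16 with the replicate block, and 3 to 7 with 1 library left out. With sh78 (3) they were 9 without the filter, 19 with the block, 5 with only the groups compared and 6 in DESeq2, and 3 to 7 with 1 library left out. Between the hairpins (6) they were 17 with the block and 3 to 7 with 1 library left out. Over all genes, 610, 750 and 629 were called for sh76, sh78 and sh78 against sh76, and 3467, 3388 and 3117 with the block, 1149, 1212 and 1125 without the filter. The causes were not tested. At these depths KLK11, KLK13 and KLK14 rest on 3 to 36 counts per library, and KLK9 and KLK12 were too low to compare.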
